A study of Mus musculus with 4 samples.

Results

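Forkhead (FOX) transcription factors share a DNA-binding domain of winged-helix fold and were read here as every non-control probe whose gene name begins with Fox followed by a subfamily letter and a number. That rule took 58 probes for 45 gene names, of 50090 gene names on the array, and all 45 symbols were found in the RefSeq gene table, Foxf1a as an older name of Foxf1. One of the names, Foxl2os, is an RNA from the strand opposite Foxl2. The cells were C3H10T1/2, an immortalised mouse embryo fibroblast line that is contact inhibited and is used to score chemical transformation. The 2 control arrays were hybridised with RNA from cells kept in culture for 6 weeks. The 2 arrays called 3MC+TPA were hybridised with RNA from cells given 3-methylcholanthrene (3MC), a polycyclic aromatic hydrocarbon that binds the aryl hydrocarbon receptor, at 2.5 µg/ml for 2 days, followed by 4 days in normal medium. For the next 2 weeks these cells were treated at 100 ng/ml with TPA, the tumour-promoting phorbol ester 12-O-tetradecanoylphorbol-13-acetate, and they spent a last 4 weeks in normal medium. For the control cells the labels state only the time in culture.

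Forkhead factors are named by subfamily letter. FOXO proteins are held out of the nucleus when insulin and growth factor signalling activates the kinase AKT, and in its absence they switch on genes of cell cycle arrest, apoptosis and stress resistance. FOXM1 drives genes of mitosis in dividing cells, while FOXC, FOXD, FOXF and FOXS1 act mainly in mesenchyme, the tissue from which fibroblasts come, and Foxf genes lie downstream of Hedgehog signalling. FOXA factors open chromatin in endoderm, FOXJ1 is the master regulator of motile cilia, FOXP3 defines regulatory T cells, and FOXP2 is best known from the brain.

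The gene starts carry the regulatory sequence nearest to each gene, and a 250-base window before the start was at hand in RefSeq for 28 of the 45 genes, in 33 windows. Only 3 of the 9 genes that passed the test have one, so the shares given here leave out Foxe1, Foxj1, Foxo4, Foxo6, Foxp2 and Foxs1. The windows of those 3 (Foxf2, Foxj2 and Foxj3) are shown with that of Foxc1, a chromosome neighbour of Foxf2 that did not pass the test. Each is 5′ to 3′ on the plus strand of build GRCm38.p6, at chr13:31625566-31625815 for Foxf2, chr13:31806396-31806645 for Foxc1, chr6:122819934-122820183 for Foxj2 and chr4:119539411-119539660 for Foxj3. Capitals mark the letters GCGTG, the core of the site bound by the aryl hydrocarbon receptor, and GGGCGG, the GC box, on either strand.
Foxf2: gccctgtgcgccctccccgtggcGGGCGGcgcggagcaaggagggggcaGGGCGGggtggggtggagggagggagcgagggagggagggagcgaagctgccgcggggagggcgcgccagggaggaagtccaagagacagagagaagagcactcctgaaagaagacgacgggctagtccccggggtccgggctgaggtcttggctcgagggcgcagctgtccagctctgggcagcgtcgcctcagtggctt
Foxc1: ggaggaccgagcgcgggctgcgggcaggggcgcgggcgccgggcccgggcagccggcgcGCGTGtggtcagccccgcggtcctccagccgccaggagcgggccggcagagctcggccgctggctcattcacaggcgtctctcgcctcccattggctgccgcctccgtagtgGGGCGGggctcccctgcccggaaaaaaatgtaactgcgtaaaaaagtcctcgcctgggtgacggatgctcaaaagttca
Foxj2: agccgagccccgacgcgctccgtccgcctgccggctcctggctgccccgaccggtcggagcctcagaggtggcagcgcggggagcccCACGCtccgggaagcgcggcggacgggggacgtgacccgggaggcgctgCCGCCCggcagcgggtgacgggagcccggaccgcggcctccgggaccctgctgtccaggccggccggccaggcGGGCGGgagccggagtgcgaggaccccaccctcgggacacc
Foxj3: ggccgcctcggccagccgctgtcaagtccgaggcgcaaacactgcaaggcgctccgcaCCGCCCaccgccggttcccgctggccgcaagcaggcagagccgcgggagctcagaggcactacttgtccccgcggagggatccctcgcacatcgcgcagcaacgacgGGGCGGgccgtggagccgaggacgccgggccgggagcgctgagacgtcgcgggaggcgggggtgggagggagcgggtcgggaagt
The Foxf2 and Foxj3 windows held no GCGTG and 2 GC boxes each. The Foxc1 window held 1 GCGTG and 1 GC box, and the Foxj2 window 1 GCGTG and 2 GC boxes, with no base shared by both motifs. Over all forkhead windows GCGTG was present in 14 of 33 (42.4%, in 12 genes), against 28.2% of the 32851 windows of all genes. GGGCGG was present in 69.7% of forkhead windows and 32.7% of all windows. The forkhead windows were richer in G and C, with a median of 62.0% against 52.4%. The AP-1 site TGACTCA, bound by factors that phorbol esters activate, was found in 1 forkhead window (Foxe3, 3.03% against 4.46% of all windows), and the forkhead site GTAAACA also in 1 (Foxa1, 3.03% against 3.17%). The GLI site TGGGTGGTC of Hedgehog signalling was in no forkhead window and in 0.225% of all windows. These matches describe letters in the windows only.

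Levels are log2 of the spot signal over the 75th percentile of its array, so 0 is the level of a fairly bright spot and the lowest values well above background lay between -4.71 and -4.81. A gene was read by its brightest probe and tested where the scanner's software marked that probe as well above background on both arrays of a group. By this rule 28 forkhead genes were tested, 26 of them well above background on all 4 arrays, and 17 were not. Of the 28, 9 passed the threshold (limma, adjusted p under 0.05 over all gene names), 5 higher and 4 lower in 3MC+TPA. That is 32.1% of the forkhead genes tested, beside 15.7% of all 24978 gene names tested. Genes called higher made up 17.9% of the family and 7.33% of all gene names, and genes called lower 14.3% and 8.34%. The median log2 change was 0.28 for the forkhead genes and -0.01 for all gene names, and 19 of the 28 changes were above 0. Foxe1 and Foxp2 passed the filter only through the group where they were brighter. With all 4 arrays required to be well above background, 8 of 26 forkhead genes were called, beside 3839 of all gene names. Foxe1 and Foxp2 dropped out under this filter, and a forkhead gene not called in the main fit gained a call. With no filter on dim probes Foxe1, Foxj1, Foxo4 and Foxp2 kept their calls (limma adjusted p from 0.0381 to 0.049) and the other 5 lost theirs. Those 4 and Foxf2 were called with any 1 array left out. Because the comparison is of bulk RNA, fewer cells of a type and less RNA per cell cannot be told apart. Each ± is a standard error from the fit, on 2 arrays a group. Where groups are said to overlap or not, this describes the same 4 values that were tested. It adds no support to a call, and its share over all gene names was not counted.

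**Figure D1:**
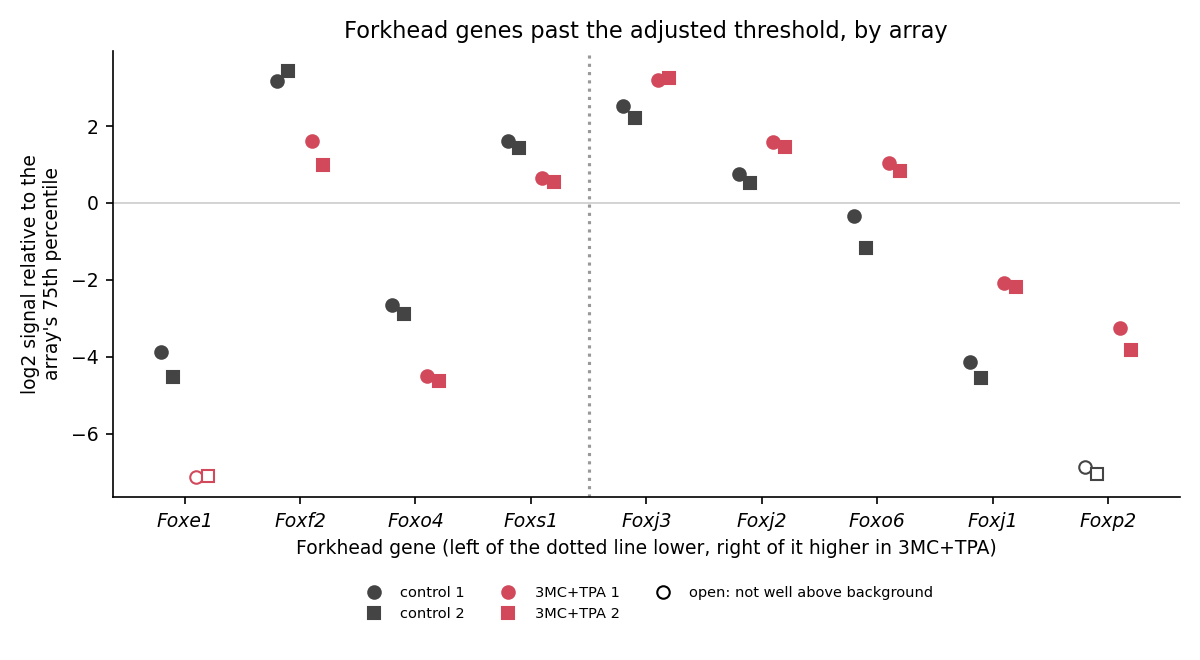
Log2 of the signal over the 75th percentile of its array (y axis) of the 9 forkhead genes past the adjusted threshold (x axis), 1 point per array, with open points where the probe was not well above background. The genes were picked by the test on these same values, and for each the 2 control points and the 2 3MC+TPA points do not overlap. Foxe1 was not well above background on the 3MC+TPA arrays, nor Foxp2 on the control arrays.

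Among the mesenchymal factors, Foxf2, which acts in the mesenchyme of gut, palate and lung, fell about 4-fold. It stood at 3.18 and 3.43 on control arrays 1 and 2 and at 1.60 and 0.98 on the 3MC+TPA arrays, a log2 change of -2.01 ± 0.26 (limma adjusted p = 0.0105). Both 3MC+TPA values lay below both control values. Foxs1, a factor of vessel-associated and neural crest derived cells, stood at 1.62 and 1.44 in controls and at 0.65 and 0.56 in 3MC+TPA, a change of -0.93 ± 0.16 (limma adjusted p = 0.0224). The groups did not overlap, but the Foxs1 call was lost without any one of the 4 arrays, with limma adjusted p from 0.0521 to 0.108, and without scaling between arrays, at -0.58. Foxf1a, the closest relative of Foxf2, was at -2.80 and -4.15 in controls and at -4.40 and -3.28 in 3MC+TPA, so its groups overlapped (change -0.37 ± 0.57, limma adjusted p = 0.70).

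The other mesenchymal members tested did not pass, nor did Foxq1, a chromosome neighbour of Foxf2. Foxc1, needed for mesenchyme of the eye and skull, was at 4.36 and 4.30 in controls and 4.80 and 4.66 in 3MC+TPA. Its groups did not overlap, and the change was 0.40 ± 0.15 (limma adjusted p = 0.145). Foxc2, a relative that acts in lymphatic and adipose tissue, was at -1.12 and -2.05 in controls and -0.45 and -0.77 in 3MC+TPA, also without overlap. Its change of 0.98 ± 0.34 missed the threshold (limma adjusted p = 0.118) and passed it without control array 1, at 1.44 and 0.0265. Foxd1, a marker of kidney stroma, was at 4.49 and 4.50 in controls and 4.32 and 4.00 in 3MC+TPA, a change of -0.33 ± 0.18 (limma adjusted p = 0.250). Foxq1 overlapped between groups, with -0.56 and -0.35 in controls and -0.78 and -0.04 in 3MC+TPA (change 0.04 ± 0.28, limma adjusted p = 0.933).

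Several of these genes lie in clusters on the chromosomes. Foxq1, Foxf2 and Foxc1 follow each other on chromosome 13 with no other protein-coding gene between them in the RefSeq table, and of the 3 only Foxf2 passed the test. The next protein-coding gene past Foxc1, Gmds, an enzyme of GDP-fucose synthesis, was at 0.84 and 0.91 in controls and 0.27 and 0.40 in 3MC+TPA (change -0.55 ± 0.15, limma adjusted p = 0.0752). On chromosome 8, Foxf1, Foxc2 and Foxl1 lie together with Mthfsd among them. Foxl1 was not well above background on any array, and Mthfsd changed by 0.23 ± 0.16 (limma adjusted p = 0.361). On chromosome 4, Foxd2 (change 0.25 ± 0.19) and Foxe3 (change -0.45 ± 0.30), which flank the RNA Foxd2os, also did not pass. Differences between neighbours were not tested.

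Among the 9 Hedgehog pathway genes tested, 4 were lower and 0 higher, 44.4% called beside 15.7% of all gene names (8.34% lower). Of the 4, Hhip and Ptch1 passed the filter only through the control arrays, where they were brighter. With all 4 arrays required to be well above background, 2 of 7 were called, both lower, beside 3839 of all gene names (1980 lower). The ligand decoy Hhip, itself induced by the pathway, stood at 0.02 and 1.57 in controls and was not well above background in 3MC+TPA, at -7.08 and -7.09. It was at least 48.4-fold lower (limma adjusted p = 0.00158). Boc, a ligand co-receptor, went from 2.96 and 2.63 to 0.85 and 0.67, a change of -2.03 ± 0.19 (limma adjusted p = 0.00421). Gas1, another co-receptor, went from 4.78 and 4.44 to 3.16 and 3.49, a change of -1.28 ± 0.21 (limma adjusted p = 0.0196). Cdon, also a co-receptor, went the other way without passing, by 0.67 ± 0.23 (limma adjusted p = 0.110). The receptor Ptch1 was at -4.10 and -4.16 in controls and, not well above background, at -5.70 and -5.58 in 3MC+TPA, at least 1.595-fold lower (limma adjusted p = 0.00553). In Hhip, Boc, Gas1 and Ptch1 no 3MC+TPA value reached a control value. The effectors did not pass, with Gli2 at -0.07 ± 0.19 and Gli3 at 0.36 ± 0.17 (limma adjusted p = 0.842 and 0.219), and Gli1 was well above background on no array. The median log2 change of the list was -0.48, against -0.01 over all gene names. It was -0.75 and -0.31 without control arrays 1 and 2, and -0.20 and -0.77 without 3MC+TPA arrays 1 and 2.

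Of the 4 FOXO genes, targets of AKT, 1 fell, 1 rose, 1 did not pass and 1 was not tested. Foxo4 fell from -2.65 and -2.89 in controls to -4.49 and -4.62 in 3MC+TPA, a change of -1.78 ± 0.17 or 3.45-fold (limma adjusted p = 0.00471). Foxo6, the member best known from brain, rose from -0.33 and -1.18 to 1.05 and 0.83, a change of 1.70 ± 0.31 or 3.24-fold (limma adjusted p = 0.0264). Neither gene's groups overlapped. With normexp background correction the Foxo4 change shrank to -0.92 and kept its call. The Foxo6 call was lost without either 3MC+TPA array, at changes of 1.59 and 1.81 (limma adjusted p = 0.119 and 0.102). Foxo1 stood at 2.79 and 2.50 in controls and 2.86 and 2.93 in 3MC+TPA, and neither of its probes passed (changes 0.25 ± 0.17 and 0.12 ± 0.20, limma adjusted p = 0.373 and 0.719). Foxo3 was well above background only on control array 2, at -4.36, with -5.19 on control array 1 and -5.33 and -5.21 on the 3MC+TPA arrays, and was not tested.

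Of 30 FOXO target genes 26 were tested, and 4 rose and none fell, 15.4% called beside 15.7% of all gene names, a share near the background. Trim63, a muscle ubiquitin ligase, was at -4.13 and -4.73 in controls and -3.21 and -3.01 in 3MC+TPA (change 1.32 ± 0.24, limma adjusted p = 0.0274). Bcl2l11, the pro-apoptotic protein BIM, was at 2.89 and 2.28 in controls and 3.79 and 3.72 in 3MC+TPA (change 1.17 ± 0.24, limma adjusted p = 0.0357). Gadd45a, a growth arrest and DNA damage gene, was at 1.39 and 1.72 in controls and 2.92 and 2.45 in 3MC+TPA (change 1.13 ± 0.23, limma adjusted p = 0.0350). None of these groups overlapped, and the fourth gene was Irs2, an insulin receptor substrate. The list's median log2 change was 0.18, and 0.10 to 0.27 with 1 array left out. The number called was 3 without control array 1 (2 higher, 1 lower) and 0 without control array 2 or without either 3MC+TPA array, and several other settings also called 1 or 2 targets lower, among them normexp with 4 higher and 2 lower.

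Of the 26 regulators of FOXO proteins, all tested, 1 rose and 1 fell, 7.69% called beside 15.7% of all gene names. Pik3cb, a catalytic subunit of the lipid kinase upstream of AKT, was at -2.20 and -2.78 in controls and -0.25 and -0.15 in 3MC+TPA, a change of 2.29 ± 0.24 (limma adjusted p = 0.00580). Its groups did not overlap. Akt1 changed by 0.11 ± 0.19 (limma adjusted p = 0.718). The list's median was -0.02, and the number called was 3 without control array 1 and 1 without each of the other arrays in turn.

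**Figure D2:**
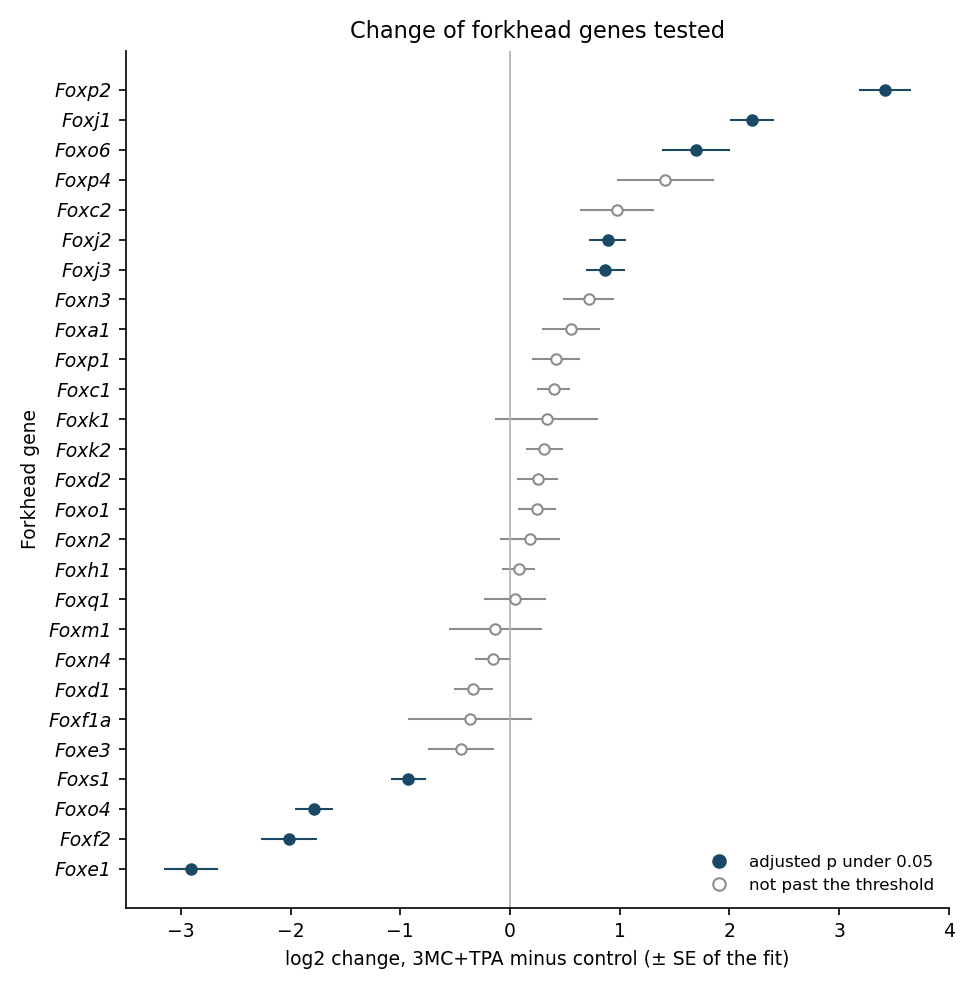
Log2 change, 3MC+TPA minus control, with its standard error (x axis), of 27 of the 28 forkhead genes tested (y axis), filled where the adjusted p was under 0.05. The changes run from -2.91 for Foxe1 to 3.42 for Foxp2, which are fitted values against dim signals, and 18 of the 27 shown lie above 0.

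Foxm1 did not pass, and its control arrays were far apart. It stood at -0.02 on control array 1, 1.20 on control array 2, and 0.31 and 0.61 on the 3MC+TPA arrays, so both 3MC+TPA values fell between the controls. The change was -0.13 ± 0.42 (limma adjusted p = 0.860), with -0.74 when control array 1 was left out and 0.48 when control array 2 was. The 23 FOXM1 target genes, which encode cyclins, mitotic kinases and spindle proteins, all had a change below 0, from -0.90 to -0.19 with a median of -0.59, yet none passed the adjusted threshold by limma. Over all gene names tested 15.7% passed it. At an unadjusted p under 0.05 by limma 1 target passed, beside 8395 of all 24978 gene names. The methods' t-test called no target before or after adjustment, beside 5699 and 21 of all gene names. Among the targets the largest change was that of Ccnb1, cyclin B1 (-0.90 ± 0.56, limma adjusted p = 0.323). It stood at 1.79 and 3.52 on the control arrays and 1.66 and 1.84 on the 3MC+TPA arrays.
The targets shared the gap between the controls. Control array 1 lay below control array 2 in 23 of 23 targets, by a median of 1.08 on the log2 scale, while over all gene names that median gap was 0.03 in the other direction. Control array 2 held the highest of the 4 values in all 23. Without control array 1 the list's median change was -1.13, and without control array 2 it was -0.05. The median over all gene names was -0.01 in both settings. Among the 28 forkhead genes control array 1 lay below control array 2 in 8, and among all 24978 gene names in 11336.

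**Figure D3:**
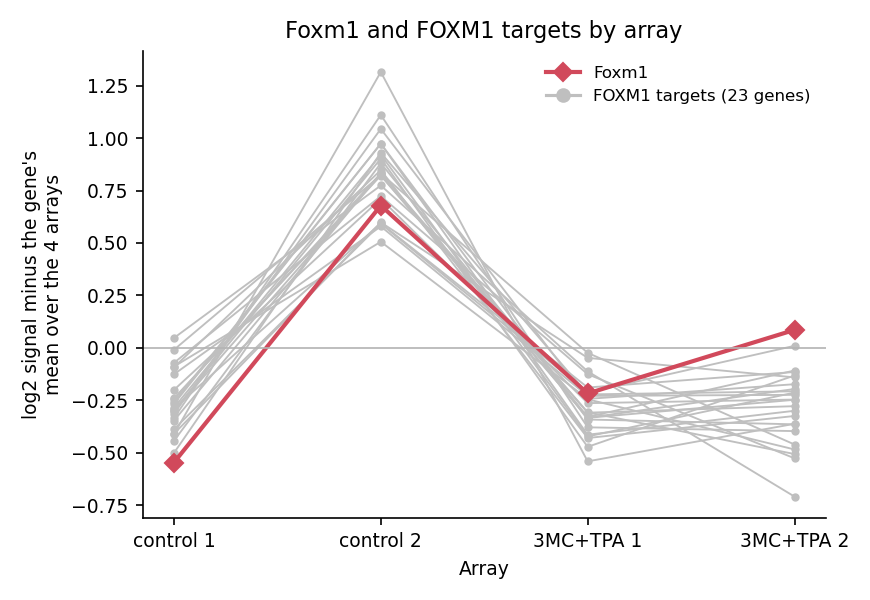
Log2 signal minus the gene's mean over the 4 arrays (y axis) on each array (x axis), for Foxm1 in red and the 23 FOXM1 targets in grey, 1 line per gene. Every target is highest on control array 2; Foxm1 is highest there too, and the lines join arrays of unordered samples only to follow a gene.

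The FOXJ genes made up 3 of the 5 rises. Foxj1, the regulator of motile cilia, was at -4.14 and -4.55 in controls and -2.07 and -2.20 in 3MC+TPA, a change of 2.21 ± 0.20 or 4.62-fold (limma adjusted p = 0.00405). The groups did not overlap, and with normexp background correction the change was 1.01 and kept its call. Foxj2 was at 0.75 and 0.52 in controls and 1.59 and 1.46 in 3MC+TPA, a change of 0.89 ± 0.17 (limma adjusted p = 0.0283). Foxj3, a regulator of muscle and germ cell genes, was at 2.52 and 2.21 in controls and 3.20 and 3.26 in 3MC+TPA, a change of 0.87 ± 0.18 (limma adjusted p = 0.0344). Neither overlapped between groups. Both calls held without control array 1, at 1.01 for Foxj2 and 1.02 for Foxj3 (limma adjusted p = 0.0465 and 0.042). Without control array 2 or either 3MC+TPA array both were lost, with changes of 0.78 to 0.95 for Foxj2 (limma adjusted p from 0.0993 to 0.12) and 0.71 to 0.90 for Foxj3 (0.113 to 0.141). The second Foxj3 probe was well above background only on 3MC+TPA array 1.
Of 7 motile cilia genes, 4 were well above background on no array and 2 were tested. Dnaic1, a dynein chain, fell from 0.05 and -0.15 in controls to -1.05 and -1.11 in 3MC+TPA (change -1.03 ± 0.16, limma adjusted p = 0.0170), and Ccdc39 changed by 0.10 ± 0.20 (limma adjusted p = 0.757). The summed level of the 7 genes, nearly all of it Dnaic1, was 0.24 and 0.09 in controls and -0.74 and -0.72 in 3MC+TPA, and its part in the Foxj1 values was not tested.

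By the brighter of its 2 probes, the other well above background on no array, Foxp2 rose from not well above background. It stood at -6.86 and -7.04 on the control arrays and at -3.25 and -3.81 on the 3MC+TPA arrays, where it was at least 2.32-fold higher (limma adjusted p = 0.00190). This bound is the exposed mean over the lowest signal well above background on the control arrays. With normexp background correction the Foxp2 change was 0.62, which falls short of the bound. Foxe1, a thyroid and palate factor, fell to a level not well above background. It stood at -3.88 and -4.53 in controls and at -7.12 and -7.11, not well above background, in 3MC+TPA, and was at least 1.52-fold lower (limma adjusted p = 0.00354), with a change of -0.72 under normexp.
The other FOXP genes did not pass. Foxp1, which acts in heart and lymphoid cells, was at 2.42 and 2.45 in controls and 2.59 and 3.11 in 3MC+TPA (change 0.42 ± 0.22, limma adjusted p = 0.252). The 2 probes of Foxp4 changed by 1.42 ± 0.45 and 0.66 ± 0.32 (limma adjusted p = 0.0957 and 0.221). Foxp3 was well above background on no array, as was Ctla4 among the regulatory T cell markers, of which 2 of 5 were tested and none passed.
Foxp2 is also a gene of neurons. Of 6 neural markers 3 were tested and 1 rose, Map2, a microtubule protein of neurons, by 3.75 ± 0.54 (limma adjusted p = 0.0143), while Tubb3 changed by 0.11 and Sox10 by -0.37 without passing and Sox2, Gfap and Rbfox3 were well above background on no array. The summed level of the 6, which in 3MC+TPA is mostly Map2, was 0.08 and -0.43 in controls and 2.16 and 1.88 in 3MC+TPA, and its part in the Foxp2 values was not tested.

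Foxn2, Foxn3, Foxk1 and Foxk2 have more than 1 probe each on this array, while Foxn1 and Foxn4 have 1. Those of Foxn2 and of Foxp2 are shown because the 2 probes of each lie on the same transcript and differed in outcome. The first 30 of the 60 bases of each are given, 5′ to 3′, with no part marked.
Foxn2, brighter probe: atgtaaagggttcatactagatggtcagtt
Foxn2, dimmer probe: ccatccgtagagccttgtaatttttatcct
Foxp2, brighter probe: gcgtattgttatatatatagtacattgcgt
Foxp2, dimmer probe: actgtggacgaagtcgaataccagaagcga
The brighter Foxn2 probe was at -0.59 and -0.45 in controls and 0.02 and -0.70 in 3MC+TPA, with overlap and a change of 0.18 ± 0.27 (limma adjusted p = 0.686). The dimmer probe was at -4.15 and -4.43 in controls and, not well above background, at -5.45 and -5.13 in 3MC+TPA, and was at least 1.43-fold lower (limma adjusted p = 0.0321 over all probes), having passed the filter through its control arrays. The dimmer Foxp2 probe was well above background on no array, at -6.76 and -4.62 in controls and -6.90 and -5.68 in 3MC+TPA. Over all forkhead probes 38 were tested and 10 passed, 5 in each direction, while 15.5% of all 32107 probes tested passed.
Foxn3, a checkpoint repressor, had 3 probes, all with a change above 0 and none past the threshold. The brightest was at 1.88 and 1.44 in controls and 2.56 and 2.20 in 3MC+TPA, without overlap, and changed by 0.72 ± 0.23 (limma adjusted p = 0.0998). The others changed by 0.80 ± 0.19 and 1.08 ± 0.35 (limma adjusted p = 0.0517 and 0.103). The last of these is identical over all 60 bases to a probe that the array names LOC100045964, which read -3.13 and -3.72 in controls and -2.10 and -3.31 in 3MC+TPA. No other forkhead probe shared more than 18 bases in a row with a probe of another name.
Foxk1 and Foxk2, repressors linked to autophagy and glucose use, did not pass with any of their 3 probes each. The brightest Foxk1 probe was at -3.32 and -1.93 in controls and -2.44 and -2.13 in 3MC+TPA, between the controls, and all 3 were lowest on control array 1. Foxk2 was at 1.83 and 1.61 in controls and 2.11 and 1.95 in 3MC+TPA without overlap, and its probes changed by 0.32, 0.01 and -0.13.

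**Figure D4:**
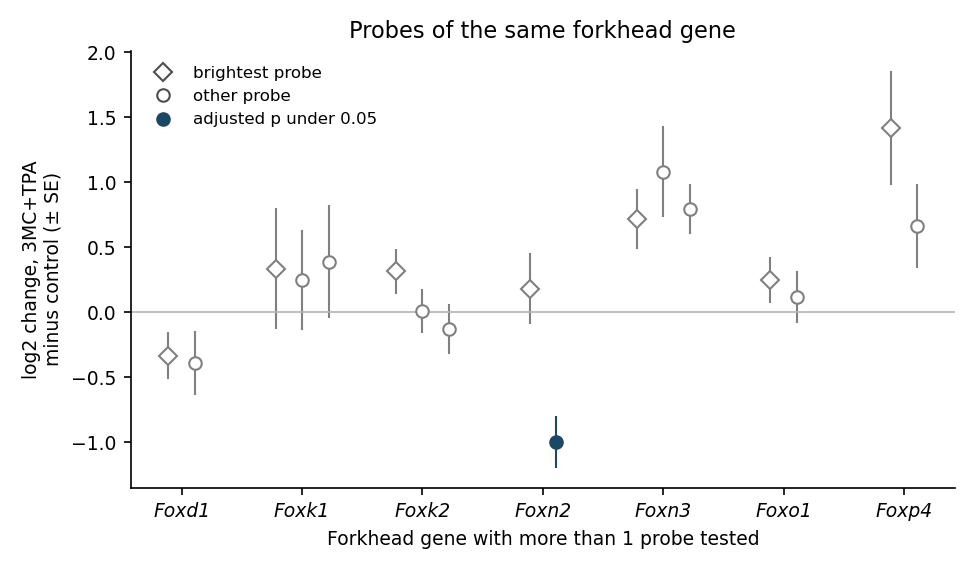
Log2 change with its standard error (y axis) of each tested probe of the 7 forkhead genes with more than 1 probe tested (x axis), diamonds for the brightest probe and circles for the others. The dimmer Foxn2 probe, at -1.0, is the only one past the threshold, a fitted value against signals not well above background, and its partner lies at 0.18.

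FOX proteins of several subfamilies repress genes through Groucho (TLE) and CtBP corepressors, and 3 of 14 such genes rose and none fell, 21.4% called beside 15.7% of all gene names (7.33% higher). Tle4 was at 2.16 and 2.00 in controls and 3.31 and 2.83 in 3MC+TPA (change 0.98 ± 0.22, limma adjusted p = 0.0411). Tle1 was at 1.57 and 1.91 in controls and 2.79 and 2.56 in 3MC+TPA (change 0.94 ± 0.20, limma adjusted p = 0.0360), with no overlap in either gene. Ctbp2 was at 3.07 and 2.93 in controls and 3.79 and 3.78 in 3MC+TPA (change 0.79 ± 0.15, limma adjusted p = 0.0308). Its groups did not overlap, and the list's median was 0.31. No corepressor was called when any one of the 4 arrays was left out.

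**Figure D5:**
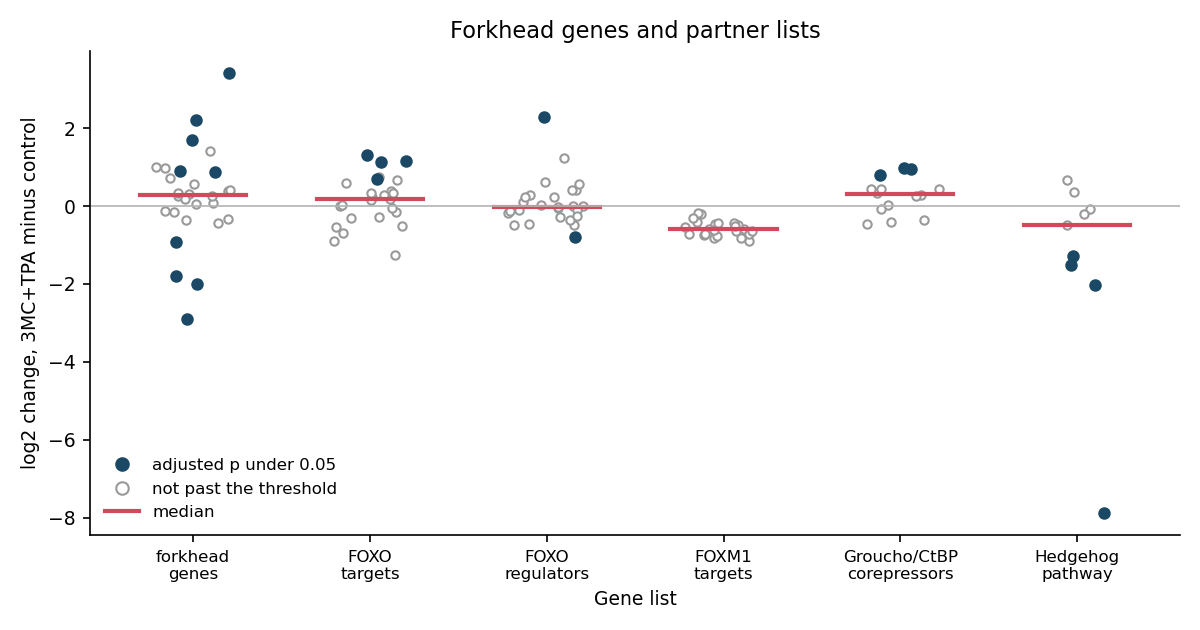
Log2 change, 3MC+TPA minus control (y axis), of the forkhead genes tested and of the tested members of 5 partner lists (x axis), 1 point per gene, filled where the adjusted p was under 0.05, with the median as a red line. Medians were 0.28, 0.18, -0.02, -0.59, 0.31 and -0.48 from left to right; the lowest Hedgehog point is the fitted value of Hhip against a signal not well above background.

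Foxa1, Foxd2, Foxe3, Foxh1 and Foxn4 were also tested, had changes between -0.45 and 0.56 and did not pass. Another 14 members were well above background on no array, with values from -7.14 to -5.05: Foxa2, Foxa3, Foxb1, Foxb2, Foxd4, Foxi1, Foxi2, Foxi3, Foxl1, Foxl2os, Foxn1, Foxp3, Foxr1 and Foxr2. Foxd3, a neural crest factor, was well above background on control array 1 alone, and Foxl2, an ovary factor, on control array 2 and 3MC+TPA array 2, so neither was tested.
Of the fibroblast markers 10 of 10 were well above background on all 4 arrays, as the line's label has it. Thy1 rose, Pdgfra, Pdgfrb and Dcn fell, and the others did not pass, where 15.7% of all gene names were called. The summed level of the fibroblast markers was 11.03 and 10.86 in controls and 10.62 and 10.67 in 3MC+TPA. Most markers of other cells were dim: 3 of 8 epithelial and 3 of 7 leukocyte markers were tested with none called, and Epcam, Cdh1, Ptprc and Pecam1 were above background on at most 1 array. Of 5 adipocyte markers 3 were tested. Pparg and Cebpa fell, and Fabp4 changed by 0.055 ± 0.23 without passing (limma adjusted p = 0.895). The summed level of the 5 was 4.02 and 4.28 in controls and 3.54 and 3.29 in 3MC+TPA. Sox17, of the endoderm list, fell and Tek, of the endothelial list, rose, both not well above background in 1 group. The part of these levels in the forkhead values was not tested.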

How the data were processed

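Total RNA of 2 control and 2 3MC+TPA samples was read in 1 colour (Cy3) on 4 arrays of 1 slide, which carry 61657 non-control spots for 61307 probes. Sample titles gave the groups. The labels do not say that arrays of a group are separate cultures, so the p-values reflect the spread between these 4 arrays alone, and that spread may be technical. Slide position and group cannot be told apart. The intensity values come from Agilent Feature Extraction 10.7.3.1, per the file headers. The log2 values deposited by the authors match the processed signal taken to log2 less its 75th percentile on the array, within 0.01 for at least 61236 of 61307 probes per array, with column medians of -4.29, -4.31, -4.39 and -4.35. They served as an alternative. The series' design text names GeneSpring GX 11.5 and says that samples were hybridised in duplicate.

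Levels used here are log2 processed signals less the 75th percentile over non-control spots without outlier flags (signals of 538.9, 594.0, 698.5 and 744.6). Between 32125 and 32512 spots per array were well above background, and none was saturated. The 1319 control spots and 20 to 68 outlier spots per array were left out, and spots of 1 probe were averaged. Groups were compared with limma 3.58.1 in R 4.3.3 (lmFit and eBayes, 2-sided, no covariates), adjusted by Benjamini-Hochberg over all 24978 gene names tested. The small number of arrays limits precision. Probe accessions and symbols were matched to RefSeq tables of GRCm38.p6. The array grid was drawn on mm9, so the only coordinates given are those of RefSeq's own windows. The members and gene lists were chosen with earlier results of these data known. Values by array are given for every forkhead gene that passed and for a fixed list of others, and for each partner list for its 3 most changed called members, or its most changed member where none was called. Irs2, Gas1, Akt1, Cdon, Gli2, Gli3, Gmds, Mthfsd and the markers were named outside this rule, to complete a count or show members that did not pass. Some items are counted but not reported by name here.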

Additional observations from a re-analysis of the deposited data

How the results depend on the processing

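The 9 called forkhead genes kept their direction in each alternative that gave them a value. The second brightest probe gave no value for any of the 9. Foxe1 and Foxp2 also had none where all 4 arrays had to be well above background. Settings that alter only the test or the filter reuse the same values, so the direction could not change there. Nor could it with 1 array left out, since the groups of these 9 genes do not overlap. The count of forkhead calls became 14 without scaling between arrays (11 higher, 3 lower), 4 with no filter on dim probes, 2 by the second brightest probe (Foxn2 and Foxn3, of the 7 genes with one), 0 by the methods' t-test with Benjamini-Hochberg adjustment (9 unadjusted), and 5 to 9 when 1 array was left out. Unscaled values shift the median of all gene names to 0.34 and raise the share of higher calls from 46.8% to 79.1%. Calls over all gene names moved too, from 3915 in the main fit to 6687 unscaled, 926 unfiltered and 886 by the second brightest probe. With trend and robust eBayes 5445 were called, and by the methods' t-test 5699 unadjusted and 21 adjusted. They numbered 3839 where all 4 arrays had to be well above background, and fell with any array left out. The number tested differs between settings. Other settings gave 6 to 11 forkhead calls. By its second brightest probe Foxn2 was at -1.0, the opposite sign, a fitted value against 3MC+TPA signals not well above background. FOXO targets (4) gave 7 without scaling, 0 unfiltered, 7 when all 4 arrays had to be well above background (5 higher, 2 lower), 1 by second probe, 8 with trend and robust eBayes (6 higher, 2 lower), 1 and 0 by the methods' t-test before and after adjustment, and 0 to 3 with an array left out. FOXO regulators (2) gave 1 with quantile normalization, 6 unscaled, 0 unfiltered, 1 by the mean of probes or the second probe, 5 and 0 by the methods' t-test, and 1 to 3 with an array left out. Corepressors (3) gave 7 unscaled, 0 unfiltered, 1 by second probe, 5 with trend and robust eBayes, 6 and 0 by the methods' t-test, and 0 with any array left out. Hedgehog genes (4) gave 2 when all 4 arrays had to be well above background, 1 by second probe, 0 by the adjusted t-test and 3 to 4 with an array left out. FOXM1 targets (0) gave 0 to 15. Fewer genes tested or fewer samples shape some of these; otherwise the cause was not tested. Where leaving out an array left 1 in a group, it was assumed to vary like the other group.

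Over all gene names tested, same-numbered deviations of the 2 groups correlated at 0.001. No shared deviation was seen, which cannot show whether the samples were handled in pairs. With the replicate block 8 forkhead genes were called (4 higher, 4 lower), Foxj3 losing its call at a limma adjusted p of 0.0551, with 1 corepressor, 4 FOXO targets (2 higher, 2 lower) and 2 FOXO regulators (2 higher, 0 lower). Over all gene names 3408 were called with the replicate block, beside 3915 without it. A slide block was not run, since all arrays share 1 slide.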
